A study of Homo sapiens with 4 samples.

Results

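The data described here are the 2 libraries of nuclear RNA from A549 cells that received no irradiation, out of 4 libraries in the series, and they were chosen by their treatment label alone. A549 is a line derived from a non-small cell lung cancer. The other 2 libraries came from cells exposed to ultraviolet light and were not used. Both unirradiated libraries were labelled as nuclear extract of the same line in ordinary culture medium, and the methods of the study call them biological replicates (n = 2). RNA was taken from the supernatant of a salt extraction of the nuclei, depleted of ribosomal RNA and sequenced without selection for a poly(A) tail. The question was how much RNA lay beyond the polyadenylation site (PAS) of each gene relative to the RNA just before it.

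The 3' end of most messenger RNA is made by cleavage of the nascent transcript and addition of a poly(A) tail. A hexamer, AATAAA in most genes, binds the cleavage and polyadenylation specificity factor shortly before the cleavage site, and a stretch rich in T and G after the site binds the cleavage stimulation factor. RNA polymerase II runs on past the site, and the RNA it makes there is normally degraded, while RNA that reaches far beyond the site is called readthrough RNA. Replication-dependent histone genes end in a stem-loop and carry no poly(A) tail, and small RNA such as microRNA and small nucleolar RNA is cut out of longer host transcripts.

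The table held 4208 rows, each for a gene entry, and gave the reads in the 500 nt downstream and in the 500 nt upstream of the PAS, which is the annotated 3' end of the RefSeq gene. Downstream windows held 50814 and 81339 reads in libraries 1 and 2, against 262657 and 453821 reads in upstream windows. The median row had 5 and 9 reads downstream, against 19 and 33 reads upstream, and 305 and 231 rows had no downstream read. Wherever 2 read counts are given for a window, the first belongs to library 1 and the second to library 2. Rows had entered the table by their reads in either treatment, and 1206 rows had fewer than 10 downstream reads over the 2 unirradiated libraries and 14 rows had no read in either window. A low count here is limited by depth, and intervals and limits given below cover counting error only.

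The sequences that precede the PAS in genes at both ends of the range are shown first, as the last 30 nt of the gene on GRCh37, 5' to 3' on the strand of the gene, with the hexamer in capitals. The first 4 genes had very few reads beyond the PAS, the next 4 had more reads beyond than before it with no annotated exon there, and the last 3 had about as many or more beyond it inside annotated exon.
S100A6 (chr1:153507076-153507105, minus strand): ttgtacAATAAAttttttttggtcaaattt
GAPDH (chr12:6647512-6647541, plus strand): tcAATAAAgtaccctgtgctcaaccagtta
TFRC (chr3:195776155-195776184, minus strand): gtctgatttAATAAAatacttaaacactga
PRNP (chr20:4682205-4682234, plus strand): ctgaaATTAAAcgagcgaagatgagcacca
LINC00472 (chr6:72117567-72117596, minus strand): aaaaAATAAAacagccatttggagtctaaa
CRNKL1 (chr20:20015005-20015034, minus strand): tcctttcgatAGTAAAagtttaataatttc
CAPN7 (chr3:15294394-15294423, plus strand): tcccaatagctgAATAAAgtatagatacta
CPSF6 (chr12:69668109-69668138, plus strand): tattgaaAATAAAacaaacttttgataaga
EGFR (chr7:55275002-55275031, plus strand): gaaAATAAAactatattcatttccactcta
HACD2 (chr3:123213363-123213392, minus strand): tacagtctgaatAATGAAgtcgtaccagct
ERGIC2 (chr12:29493579-29493608, minus strand): acattgttAATAAAaaaaaaaaacgggcta

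AATAAA stood before the PAS of S100A6 and of LINC00472 alike, which lay at opposite ends of the range. Over all rows, 2440 (58.0%) had AATAAA and 620 (14.7%) had ATTAAA in the last 50 nt of the gene. Another 536 rows had one of 10 rarer forms, namely AGTAAA (111 rows), TATAAA (99 rows), CATAAA (67 rows), GATAAA (39 rows), AATATA (70 rows), AATACA (54 rows), AATAGA (21 rows), ACTAAA (15 rows), AAGAAA (34 rows) and AATGAA (26 rows). None of these 12 was found in 609 rows (14.5%). The search was on the strand of the gene, and the first in this order was taken where several were present.

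Most rows had far less RNA beyond the PAS than before it. Summed over all rows, downstream reads came to 19.3% of upstream reads in library 1 and to 17.9% in library 2. The median log2 downstream/upstream ratio, taken within each library from normalized reads with a pseudocount of 1, was -1.61 in library 1 and -1.62 in library 2. Its quartiles were -3.05 and -0.35 in library 1, and -3.07 and -0.41 in library 2. Upstream reads exceeded downstream reads in both libraries in 3074 rows (73.1%), and downstream reads exceeded upstream reads in both in 397 rows (9.43%). By limma with Benjamini-Hochberg adjustment over all rows, downstream reads were lower in 2172 rows (51.6% of those tested) and higher in 101 rows (2.4%). DESeq2 on the recovered reads called 58 rows higher.

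A second test asked which rows lay above or below the median row. By limma, 923 rows lay above it (21.9%) and 1152 below it (27.4%). edgeR on the recovered reads also called 781 of the 923 and 1147 of the 1152. Calls above the median row were less secure at low counts, since a row without reads has a log2 ratio of 0 by construction, and all 14 such rows were among the 923. The pseudocount also draws other rows of few reads toward 0, which lies above the median row. A mean of at least 10 normalized reads was reached by 607 of the 923 and by 1115 of the 1152. DESeq2 made fewer calls, 339 above and 688 below.

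**Figure D1:**
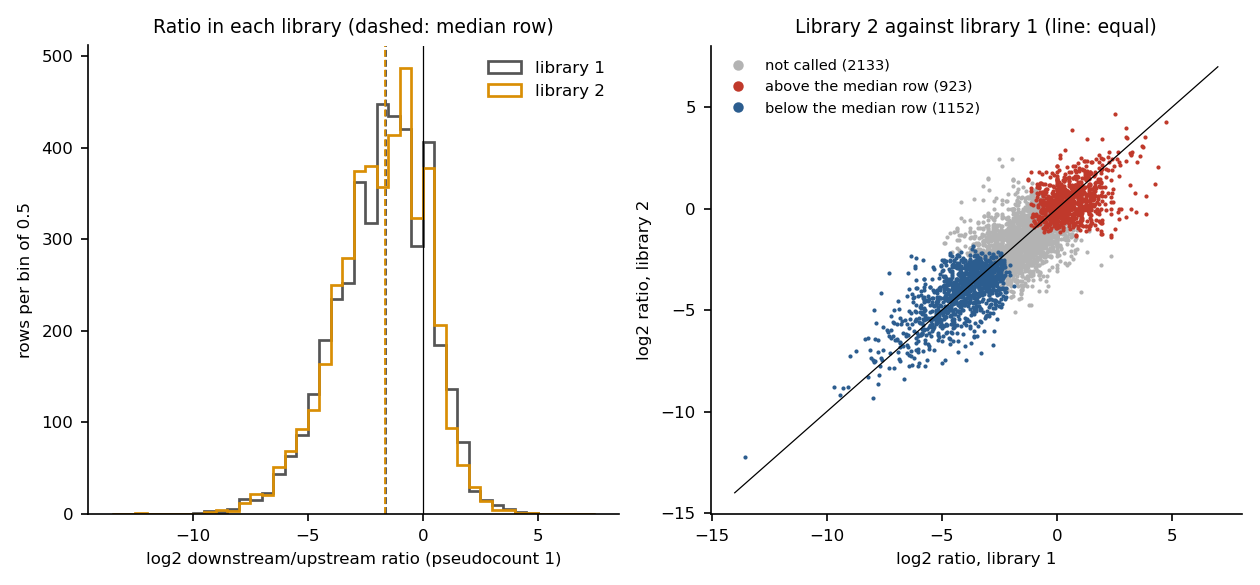
The left panel counts rows by their log2 downstream/upstream ratio in each library, with the median rows dashed at -1.61 and -1.62. The right panel sets library 2 against library 1 for each row, coloured by the test against the median row, with 923 rows above it, 1152 below it and the rest in grey.

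The 2 libraries gave similar ratios, with Pearson's r = 0.837 and Spearman's rho = 0.824 over 4208 rows, given as a description because rows of 1 library share its depth. The median absolute difference between the libraries in the log2 ratio was 0.87, 0.80, 0.58 and 0.54 from the lowest to the highest of 4 groups of rows by quartile of the upstream level. Reads varied more between the libraries than counting error alone gives (chi-square divided by its degrees of freedom, 1.62 downstream and 2.56 upstream). The proportion of downstream reads differed between the libraries in 5 rows (0.119%) by Fisher's exact test on the reads with adjustment over all rows, and in 362 rows at an unadjusted p under 0.05. These 5 were FGL1, a hepatocyte-secreted factor, ALDH1A1, the cyclin-family gene CCNI, the noncoding LOC101927481 and the MIR5188 row. ALDH1A1 is described below, and its ratio was far below that of the median row in both libraries.

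Within the rows kept in the table, a small set held a large part of the reads in upstream windows. The 10 rows with the most reads held 14.3% (95% exact interval 14.0 to 14.6) and 14.7% (14.5 to 15.0) of downstream reads, against 15.8% (15.7 to 15.9) and 15.3% (15.2 to 15.4) of upstream reads. It took 316 and 334 rows to reach 50% of downstream reads, against 180 and 182 rows for 50% of upstream reads. The 100 largest rows of both windows had 13 rows in common. By number of rows, the 100 largest beyond the PAS were thus mostly other ones than those before it. VMP1, MIR21 and AGR2, however, had the most downstream reads and were also among the 20 largest rows upstream. They held 4.49% and 5.12%, 2.96% and 2.98%, and 1.75% and 1.96% of downstream reads in libraries 1 and 2.

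**Figure D2:**
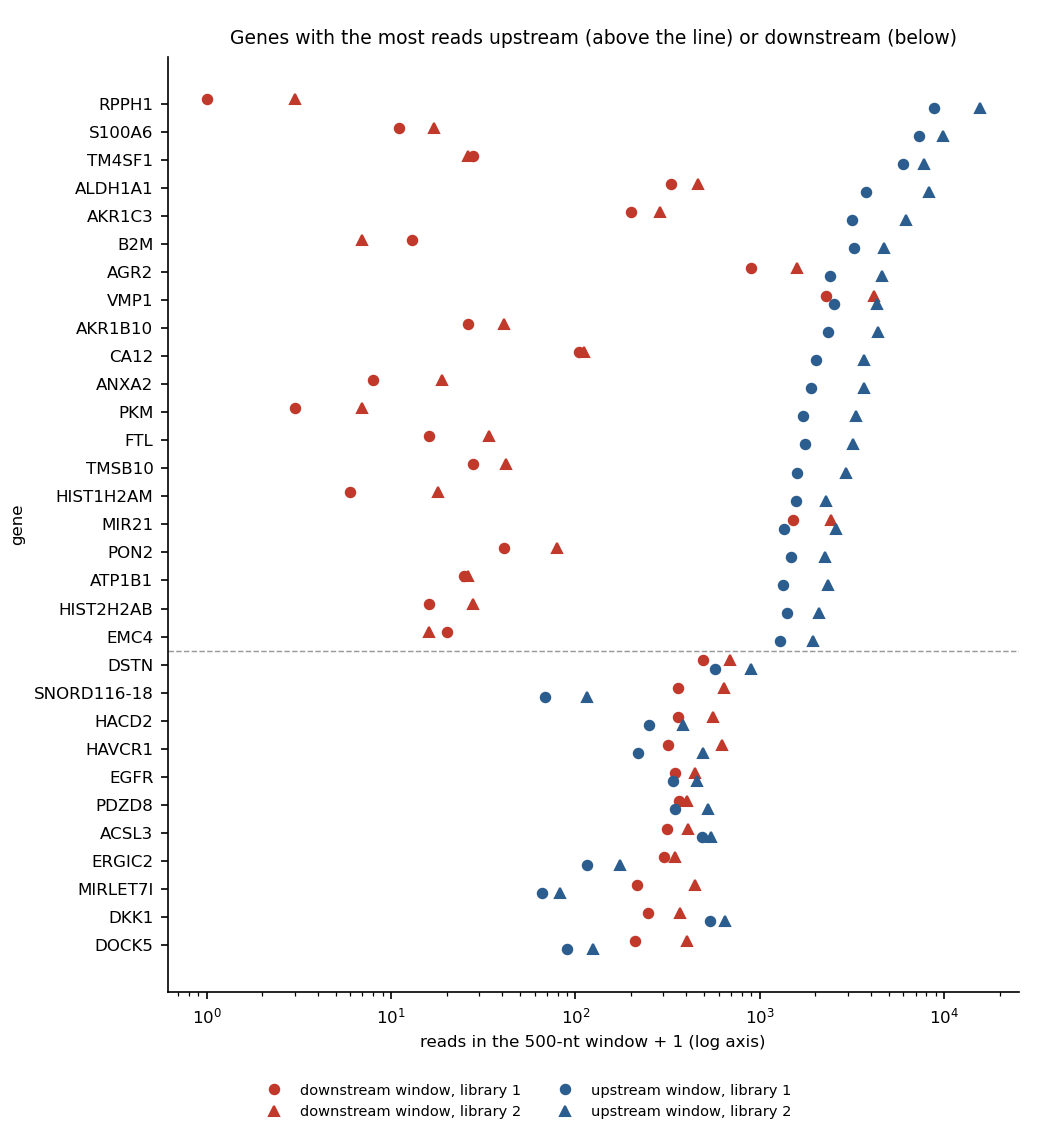
Reads in the downstream (red) and upstream (blue) windows are shown for libraries 1 (circles) and 2 (triangles) on a log axis after adding 1, for the 20 genes with the most upstream reads above the dashed line and those of the 15 with the most downstream reads that were not among them below it. Both colours lie close together for VMP1, MIR21 and EGFR, while RPPH1 has 0 and 2 reads downstream against 8754 and 15610 upstream.

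Of the 20 rows with the most upstream reads, downstream reads were lower in 18 and were not called in VMP1 and MIR21. RPPH1, the RNA component of ribonuclease P, was the largest, with 0 and 2 reads downstream, against 8754 and 15610 upstream. This polymerase III transcript has no poly(A) tail, and at 341 nt its gene is shorter than the window. The 0 reads of library 1 allow up to 0.0343% of its upstream reads, and in library 2 the downstream share of both windows was 0.0128% (95% exact interval 0.00155 to 0.0463).

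The coding genes at the top included membrane, calcium-binding and antigen presentation genes. S100A6, a calcium-binding protein, had 10 and 16 reads downstream, against 7332 and 9910 upstream (log2 ratio -9.29 ± 0.21 SE, adjusted p = 6.13e-12 against the median row). TM4SF1, a membrane protein of the transmembrane 4 family, had 27 and 25 reads downstream, against 5950 and 7759 upstream (-7.98 ± 0.23). B2M, the light chain of MHC class I, had 12 and 6 reads downstream, against 3229 and 4690 upstream (-8.67 ± 0.38). In these 3 genes the windows were separated by a factor of over 100 in both libraries, and at most 1 nt of annotated exon lay downstream.

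Genes of aldehyde and xenobiotic metabolism, known to be strongly expressed in A549, formed the next group. ALDH1A1, which oxidises retinaldehyde, had 330 and 462 reads downstream, against 3765 and 8277 upstream (log2 ratio -3.83 ± 0.28). AKR1C3, an aldo-keto reductase of steroids and prostaglandins, had 199 and 286 reads downstream, against 3170 and 6188 upstream (-4.21 ± 0.24). AKR1B10, an aldo-keto reductase induced by NRF2, had 25 and 40 reads downstream, against 2357 and 4375 upstream (-6.62 ± 0.21). The downstream windows of all 3 held no annotated exon, yet ALDH1A1 kept 8.76% and 5.58% of its upstream count there, and AKR1B10 kept 1.06% and 0.914%. ALDH1A1 was the only one of the 15 rows with the most downstream reads whose downstream window held no annotated exon.

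VMP1 and AGR2 stood out among the abundant transcripts. VMP1, a membrane protein of the endoplasmic reticulum needed for autophagy, had 2284 and 4165 reads downstream, against 2518 and 4323 upstream (log2 ratio -0.10 ± 0.26, adjusted p = 0.78 for a difference between the windows). MIR21, the precursor of a microRNA whose gene starts shortly beyond the end of VMP1, had 1504 and 2427 reads downstream, against 1354 and 2586 upstream (0.03 ± 0.25). The windows of both rows were annotated as exon over all 500 nt, and 254 nt of the downstream window of VMP1 also belonged to the upstream window of MIR21, so that some reads count in both rows. AGR2, a disulfide isomerase of secretory epithelia, had 890 and 1593 reads downstream, against 2411 and 4579 upstream (-1.48 ± 0.24), again with annotated exon over all 500 nt. Its ratio was not called different from that of the median row (adjusted p = 0.673).

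The authors had kept only genes that met a read minimum in both windows in either treatment. Genes below it in both treatments thus have no row, and rows with few downstream reads here may have entered through the irradiated libraries. Within this limit, rows with the lowest ratios were picked among the 687 rows with a mean of at least 100 normalized upstream reads. Of these 687 rows, 585 lay below the median row. Beside RPPH1, S100A6, TM4SF1 and B2M, the 15 lowest rows included PKM, the pyruvate kinase of glycolysis. PKM had 2 and 6 reads downstream, against 1715 and 3309 upstream (log2 ratio -9.07 ± 0.24). GAPDH, another glycolytic enzyme, had 3 and 4 reads downstream, against 821 and 2111 upstream (-8.22 ± 0.31). Of these 15 rows 13 had a hexamer in the last 50 nt, 11 of them AATAAA, and no annotated exon lay downstream in 9.

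Others of these rows encode unrelated proteins. CAPNS1, the small subunit of calpains, had 0 and 1 reads downstream, against 597 and 992 upstream, and its downstream share in library 2 was 0.101% (95% exact interval 0.00255 to 0.56). RPLP2, a stalk protein of the ribosome, had 1 and 2 reads downstream, against 922 and 1409 upstream. PRNP, the prion protein gene, had 1 and 1 reads downstream, against 510 and 683 upstream. TFRC, the transferrin receptor, had 0 and 2 reads downstream, against 300 and 419 upstream, and its messenger RNA is known for iron-dependent stability. ARPC3 of the actin-nucleating Arp2/3 complex had 0 and 2 reads downstream, against 363 and 484 upstream. In all 5 genes the log2 ratio lay below that of the median row by limma and by edgeR and DESeq2.

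ANKRD27, a regulator of endosomal traffic, was the only one of the 15 with no downstream read in both libraries, against 172 and 223 upstream reads. Upstream reads were thus at least 57.3-fold and 74.3-fold higher, counted against a limit of 3 reads in each library. By DESeq2 on the reads its ratio did not pass against the median row (adjusted p = 0.0945), although it passed by limma (adjusted p = 2.28e-07).

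The rows with the most downstream reads had another composition. Of the 15 largest, 13 had all 500 nt of the downstream window annotated as exon, 13 lay above the median row, and downstream reads were higher than upstream reads in 4 (SNORD116-18, ERGIC2, MIRLET7I and DOCK5). EGFR, the receptor of epidermal growth factor, had 346 and 443 reads downstream, against 336 and 453 upstream (log2 ratio 0.01 ± 0.20). HACD2, a dehydratase of very long fatty acids, had 360 and 554 reads downstream, against 249 and 381 upstream (0.53 ± 0.20). DSTN, an actin-depolymerising protein, had 488 and 686 reads downstream, against 568 and 892 upstream (-0.30 ± 0.21). For these 3 genes the table's PAS was followed by annotated exon, and the windows were not called different.

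ERGIC2, a protein that cycles between the endoplasmic reticulum and the Golgi, had 301 and 344 reads downstream, against 114 and 173 upstream (1.19 ± 0.22, adjusted p = 0.012). DOCK5, an exchange factor of Rac, had 209 and 402 reads downstream, against 89 and 124 upstream (1.46 ± 0.23, adjusted p = 0.0074). DKK1, an antagonist of Wnt signals, had 247 and 367 reads downstream, against 534 and 643 upstream (-0.96 ± 0.21), with 118 nt of exon downstream. Of DKK1 the downstream window was lower than the upstream window, and its ratio was still above that of the median row by limma (adjusted p = 0.0342), though not by DESeq2 (adjusted p = 0.142).

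Among rows with a mean of at least 20 normalized reads in each window, the highest ratios were found in rows of small RNA, in a host transcript of small RNA and in a few coding genes. CLVS1, a clathrin vesicle protein, had the highest at this read minimum, with 145 and 158 reads downstream, against 15 and 24 upstream (2.94 ± 0.28), and all of its downstream window was exon on the opposite strand only. The libraries were made with a stranded protocol, but whether reads were counted by strand is not stated. If they were not, reads of overlapping genes on opposite strands cannot be told apart. SNORD116-18 and SNORD116-20 belong to the repeated small nucleolar RNA cluster of the Prader-Willi locus. SNORD116-18 had 360 and 639 reads downstream, against 67 and 114 upstream (2.44 ± 0.20). The copies of this cluster are similar in sequence and the 94-nt gene of SNORD116-18 is shorter than the window, so that its reads cannot be assigned with certainty. HNRNPA1, a splicing regulator with many processed copies in the genome, had 142 and 246 reads downstream, against 32 and 62 upstream (2.05 ± 0.22). SNHG5, a host of small nucleolar RNA, had 109 and 134 reads downstream, against 30 and 32 upstream (1.93 ± 0.24).

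Of the 101 rows with more reads downstream than upstream, 62 had annotated exon over the whole downstream window and 18 had none. Among rows without annotated exon downstream, with at least 20 normalized reads on average in each window, the highest ratio belonged to MIR331. MIR331 had 101 and 114 reads downstream, against 21 and 29 upstream (2.08 ± 0.26, adjusted p = 0.00381). LINC00472, a long noncoding RNA, had 112 and 188 reads downstream, against 45 and 51 upstream (1.58 ± 0.26, adjusted p = 0.00805). CRNKL1, a protein of the spliceosome, had 58 and 111 reads downstream, against 33 and 35 upstream (1.22 ± 0.31, adjusted p = 0.0299). By limma, downstream reads also passed as higher in RPS12, a ribosomal protein, and in DIRC2, a lysosomal membrane transporter. DESeq2 did not call CRNKL1, RPS12 and DIRC2 (adjusted p = 0.068, 0.149 and 0.135).

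The other 10 of these 15 rows did not pass between the windows but lay above the median row. CPSF6, itself a subunit of cleavage factor I, had 34 and 51 reads downstream, against 11 and 37 upstream (1.01 ± 0.40, adjusted p = 0.0935). CAPN7, an atypical calpain, had 35 and 52 reads downstream, against 11 and 32 upstream (1.14 ± 0.37, adjusted p = 0.0572). In both, the downstream count was higher in the 2 libraries, by a wider margin in library 1. PVRL3, the adhesion protein nectin-3, had 107 and 163 reads downstream, against 56 and 111 upstream, and its upstream window held no annotated exon either, so that its PAS in the table lies away from the annotated exons used here. Others were VOPP1, HORMAD1, FUCA2, MAP7, KMT2E-AS1 and ZC3HAV1L, with log2 ratios between 0.39 and 1.01. As in PVRL3, the upstream window of KMT2E-AS1 held no annotated exon.

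**Figure D3:**
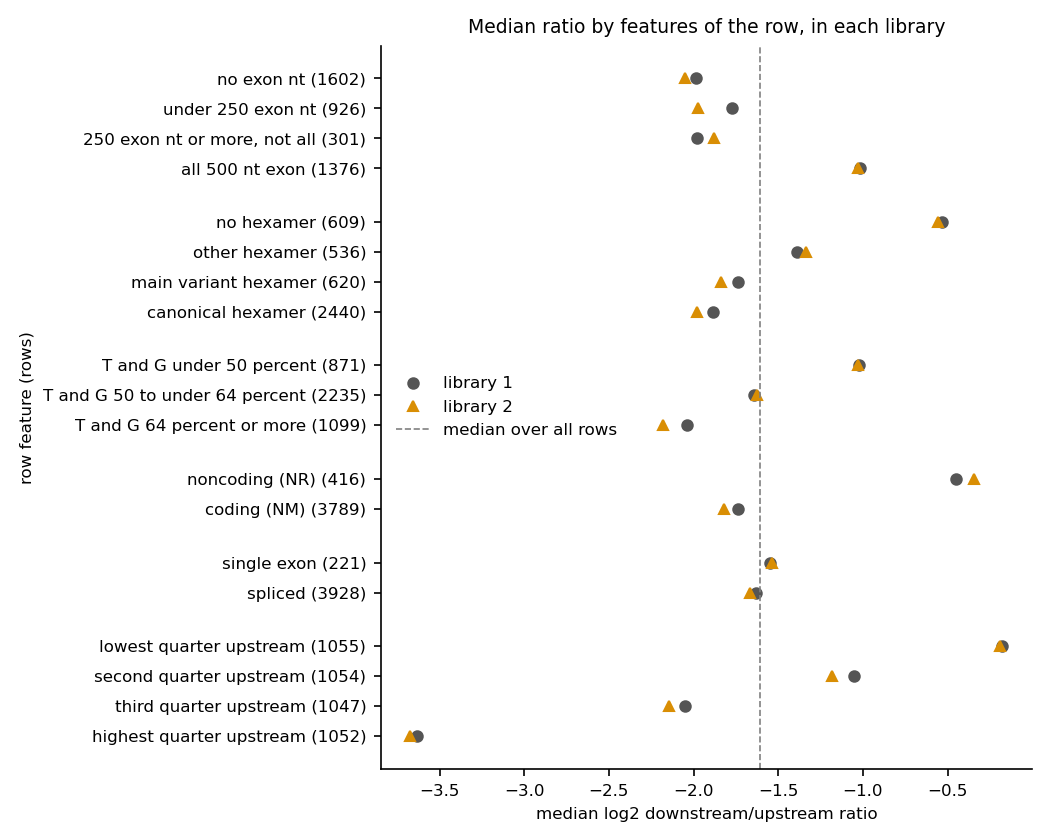
Each point is the median log2 downstream/upstream ratio of the rows with a feature in library 1 (circles) or library 2 (triangles), with the number of rows in brackets and the median over all rows dashed. The medians were -1.01 and -1.03 with exon over the whole downstream window, against -1.98 and -2.05 without exon there, and they run from near 0 in the lowest to below -3.5 in the highest quartile of upstream level.

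Annotated exon beyond the PAS went with higher ratios. The 1376 rows with exon over all 500 nt, on either strand in GENCODE, had a median log2 ratio of -1.01 and -1.03 in libraries 1 and 2, against -1.98 and -2.05 in the 1602 rows without an exon there. Their summed downstream reads came to 41.0% and 38.4% of upstream reads, against 11.1% and 10.2% in rows without exon downstream. Rows with some exon but under 250 nt (-1.77 and -1.97) and with at least 250 nt but not all (-1.98 and -1.88) were close to those without. The difference between full exon and none was 0.27, 0.67, 1.06 and 1.20 from the lowest to the highest quartile of upstream level.

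The poly(A) hexamer also went with the ratio. The 609 rows without any of the 12 hexamers had a median log2 ratio of -0.53 and -0.56, against -1.88 and -1.98 in the 2440 rows with AATAAA. Rows with ATTAAA (-1.73 and -1.84) lay near those with AATAAA, and rows with another hexamer (-1.39 and -1.34) lay between. Among rows with no annotated exon downstream, the medians were -0.85 and -0.70 without a hexamer, against -2.24 and -2.25 with AATAAA. The difference kept its sign in each quartile of upstream level, at 0.31, 0.69, 1.25 and 0.70. Rows without a hexamer include most microRNA, small nucleolar RNA and histone rows, whose 3' ends are not made by polyadenylation.

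Rows with more T and G after the PAS, in which the cleavage stimulation factor has its binding sites, had lower ratios. Where T and G made up under 50% of the first 50 nt downstream, the medians were -1.02 and -1.03 (871 rows). From 50% to under 64% they were -1.64 and -1.63 (2235 rows), and from 64% on they were -2.04 and -2.18 (1099 rows). Among rows with no annotated exon downstream the medians of these 3 classes were -1.53 and -1.52, -1.97 and -2.04, and -2.35 and -2.39. The median upstream level rose over the 3 classes of all rows as well, at 21.7, 27.3 and 33.1 normalized reads. How far the upstream level accounts for the difference was not tested. Across rows, Spearman's rho between the ratio and the T and G content was -0.19, against -0.10 for the G and C content of the downstream window, 0.04 for gene length and 0.00 for T in the downstream window, given as descriptions. Rows are not replicates, and no test was made on these features.

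Noncoding RefSeq genes had higher ratios than coding ones. The 416 noncoding (NR) rows had medians of -0.45 and -0.35, against -1.74 and -1.82 in the 3789 coding (NM) rows. The difference was 0.23 in the lowest and 1.42 in the highest quartile of upstream level. Single-exon genes had medians of -1.55 and -1.54 (221 rows), against -1.63 and -1.67 for spliced genes (3928 rows), a difference that changed sign with the level. Among rows with a mean of at least 10 normalized reads it was -0.38.

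The ratio fell with the upstream level, from which it is computed. The medians were -0.18 and -0.19, then -1.05 and -1.18, -2.05 and -2.15, and -3.63 and -3.67 from the lowest to the highest quartile, with Spearman's rho of -0.68 across rows. This is in part built in, because the upstream count is the denominator and because only genes with enough reads in both windows in either treatment had been kept in the table. Of the 1052 rows in the highest quartile, 76.6% lay below the median row and 7.4% above. This quartile had a median of -3.65 over both libraries, and rows of the third quartile had a median of -2.10, with 26.0% below the median row and 15.0% above. Counts for the gene groups below are to be read against the shares at their upstream level as well as against those over all rows.

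**Figure D4:**
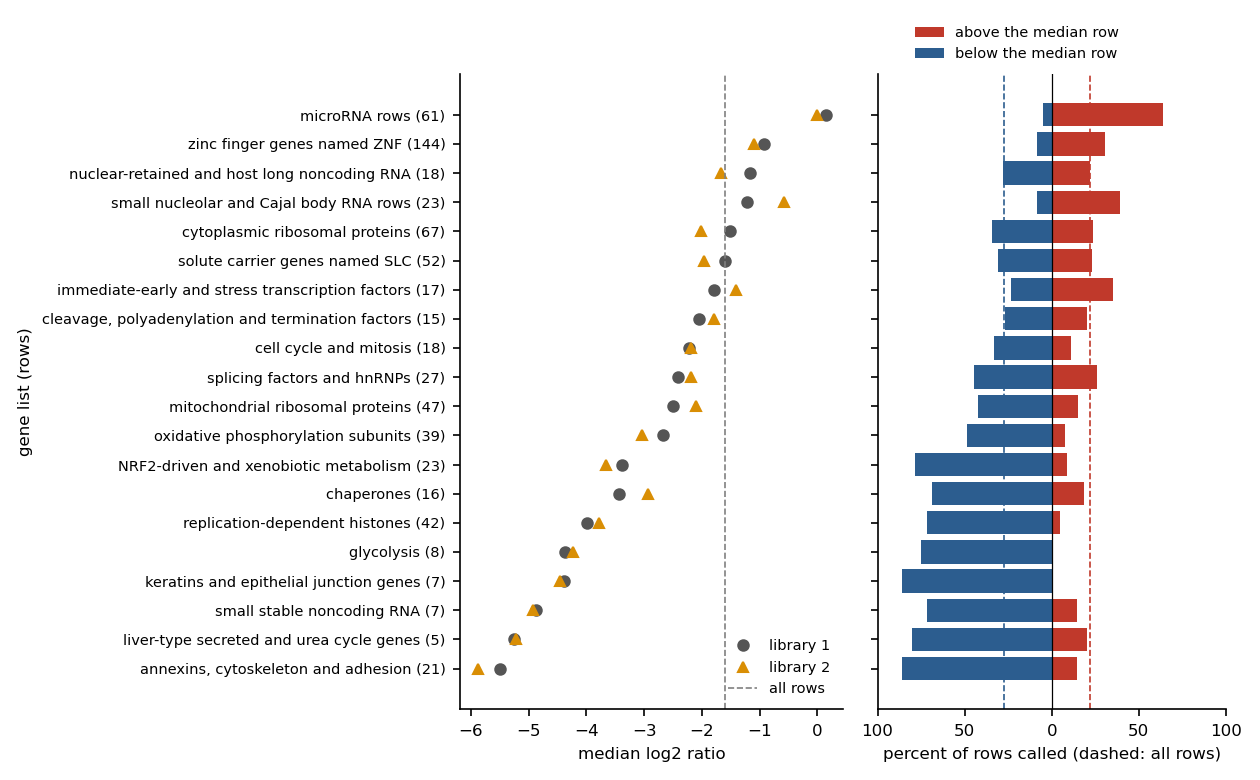
The left panel gives the median log2 downstream/upstream ratio of the gene lists shown in libraries 1 (circles) and 2 (triangles), and the right panel the percent of its rows above (red, to the right) and below (blue, to the left) the median row, with the values over all rows dashed at 21.9% and 27.4%. The microRNA rows are at the top with 63.9% above, and the annexin, cytoskeleton and adhesion genes are at the bottom with 85.7% below.

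Cytoskeletal and adhesion genes carried little RNA beyond the PAS. Of 21 rows of annexin, cytoskeleton and adhesion genes, 18 lay below the median row and 3 above, and their median log2 ratio was -5.49 and -5.89. Their median member lay in the highest quartile of upstream level, whose median was -3.65, with 76.6% below the median row. ANXA2, a membrane-binding annexin, had 7 and 18 reads downstream, against 1899 and 3664 upstream, and TMSB10, an actin-sequestering peptide, had 27 and 41 downstream, against 1595 and 2930 upstream. The 3 above were ITGB1, ANXA11 and CD59, of which edgeR did not call CD59. ITGB1, the beta-1 integrin, had 199 and 320 reads downstream, against 99 and 127 upstream (1.16 ± 0.22), with 41 nt of annotated exon downstream.

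Genes driven by NRF2 or of xenobiotic metabolism had 23 rows with a median of -3.38 and -3.66, of which 18 lay below the median row (78.3%) and 2 above (8.7%). These shares were close to those of all rows in the highest quartile of upstream level (76.6% below and 7.4% above, median -3.65), in which the median member of the group lay. They held 2.1% and 2.17% of downstream reads, against 6.27% and 7.27% of upstream reads. FTL, the light chain of ferritin, had 15 and 33 reads downstream, against 1750 and 3197 upstream. The 2 above were ABCC2, a drug efflux pump with 184 and 409 reads downstream, against 249 and 558 upstream, and NAMPT of NAD synthesis. Glycolytic genes had 8 rows with a median of -4.38 and -4.23, 6 of them below the median row, close to the 76.6% of the highest quartile, and 0 above. ENO1, the enolase, had 16 and 30 reads downstream, against 514 and 1168 upstream.

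The labelled epithelial line was checked against marker genes. Of 21 keratin and epithelial junction genes 7 had a row, 6 of them below the median row (KRT7, KRT18, KRT81, CLDN2, CTNNB1 and DSP), and only CLDN1 was not called. This share (85.7%) compares with 76.6% in the highest quartile of upstream level, in which the median member lay. The ratio itself says nothing of the cell type. KRT18, a simple-epithelium keratin, had 18 and 43 reads downstream, against 458 and 974 upstream. Of 14 markers of alveolar type 2 cells only LPCAT1, an enzyme of surfactant lipid synthesis, had a row, with 5 and 7 reads downstream, against 72 and 160 upstream. Of 19 markers of other cell types only CD68, a lysosomal protein of macrophages, had a row, with 0 and 8 reads downstream, against 51 and 65 upstream. The table holds only genes that met its read minimum in both windows, so that a gene without a row may still be expressed.

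Of 22 liver-type secreted and urea cycle genes 5 had a row, and 4 of these lay below the median row (80.0%, against 76.6% in the highest quartile of upstream level). CPS1, the first enzyme of the urea cycle, had 6 and 34 reads downstream, against 910 and 1715 upstream (-6.34 ± 0.40), and FGG, a fibrinogen chain, had 2 and 13 downstream, against 871 and 1204 upstream (-7.37 ± 0.50). CP and FGA were the other two below. FGL1 was above, with 248 and 234 reads downstream, against 208 and 491 upstream (-0.41 ± 0.37), and was one of the 5 rows that differed between the libraries.

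Histone and small stable RNA genes, whose transcripts are not polyadenylated, both carried little RNA downstream. Of 42 replication-dependent histone rows 30 lay below the median row (71.4%) and 2 above (4.76%), with a median of -3.98 and -3.78. These values were close to those of all rows in the highest quartile of upstream level (76.6% below and 7.4% above, median -3.65), and 35 of the 42 had no hexamer. HIST1H2AM, an H2A gene, had 5 and 17 reads downstream, against 1579 and 2290 upstream, and HIST1H1E, a linker histone, had 7 and 14 downstream, against 965 and 1308 upstream. The 2 above were HIST2H2BC and HIST2H3D, and histone genes have near-identical copies, which makes the assignment of their reads uncertain. Of 7 small stable RNA rows 5 lay below (RPPH1, RNU12, RNU11, TERC and SCARNA2) and 1 above (VTRNA1-1, which edgeR did not call). The share below (71.4%) was near the 76.6% of the highest quartile, in which their median member also lay. TERC, the RNA template of telomerase, had 14 and 20 reads downstream, against 433 and 641 upstream.

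The 61 microRNA rows were the set with the highest ratios, with a median of 0.15 and 0.00. Of these rows 39 lay above the median row (63.9%, 33 of the 39 also by edgeR). A mean of at least 10 normalized reads was reached by 28 of the 39 and by the 3 rows below. The share above was 21.9% over all rows and 22.1% in the second quartile of upstream level, in which their median member lay. The 3 below were the 2 rows that bear the symbol MIR4426 and MIR22HG, a long noncoding host gene included by its symbol. The 61 rows held 5.74% and 5.82% of downstream reads, against 0.98% and 1.04% of upstream reads, and 51 of the 61 had no hexamer. The sequence of the mature microRNA (RefSeq, GRCh38.p14) with its seed in capitals is shown for the 3 microRNA rows described here, whose seeds differ.
miR-21-5p: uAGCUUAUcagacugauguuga
let-7i-5p: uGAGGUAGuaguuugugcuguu
miR-331-3p: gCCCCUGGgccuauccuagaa
MIRLET7I, the precursor of let-7i, had 214 and 442 reads downstream, against 65 and 81 upstream (2.07 ± 0.27, adjusted p = 0.00423 between the windows). These windows lie mostly outside the hairpin, so that the counts say nothing of the level of the mature microRNA.

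Small nucleolar and Cajal body RNA rows, 23 in all, had a median of -1.23 and -0.57. Of these, 9 lay above the median row (39.1%) and 2 below (8.7%, SCARNA2 and SNORD116-21). The shares were 21.9% and 27.4% over all rows. In the second quartile of upstream level, in which their median member lay, they were 22.1% and 5.6%. SNORD5 had 142 and 245 reads downstream, against 75 and 123 upstream (0.95 ± 0.21). Long noncoding RNA that is retained in the nucleus or hosts small RNA had 18 rows, 4 above (OIP5-AS1, SNHG5 and GAS5 among them) and 5 below (MALAT1, LINC00657, MIR22HG, SNHG1 and SNHG6), at 22.2% and 27.8% close to the shares over all rows. MALAT1, a nuclear speckle RNA whose 3' end is cut by ribonuclease P, had 6 and 9 reads downstream, against 82 and 140 upstream, although all of that downstream window was annotated as exon. OIP5-AS1 had 72 and 105 reads downstream, against 22 and 47 upstream (1.41 ± 0.28).

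Zinc finger genes named ZNF had 144 rows, of which 44 lay above the median row (30.6%, 37 of the 44 also by edgeR) and 12 below (8.3%), with a median of -0.92 and -1.09. The shares above and below were 21.9% and 27.4% over all rows. They were 22.1% and 5.6% in the second quartile of upstream level, in which the median ZNF member lay. A mean of at least 10 normalized reads was reached by 30 of the 44 and 11 of the 12. The upstream level of the ZNF rows was low, and the quartile medians at their level had a median of -1.12. ZNF207 had 63 and 122 reads downstream, against 88 and 194 upstream, and ZNF146 had 4 and 3 downstream, against 241 and 314 upstream. Immediate-early and stress transcription factors had 17 rows, 6 above (35.3%) and 4 below (23.5%), but 2 of the 6 had no read. Their median member lay in the same second quartile. The 4 below were ATF4, BHLHE40, JUND and DUSP5. FOSL2, a partner of JUN in AP-1, had 56 and 97 reads downstream, against 58 and 86 upstream.

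Ribosomal protein genes were found on both sides of the median row. Of 67 rows of cytoplasmic ribosomal proteins 16 lay above it (23.9%, 14 of them also by edgeR) and 23 below (34.3%), against 21.9% and 27.4% over all rows, with a median of -1.52 and -2.02 and a range from -8.92 (RPLP2) to 2.26. RPS6 had 31 and 50 reads downstream, against 762 and 1362 upstream, with exon over the whole downstream window. RPL27A had 21 and 37 reads downstream, against 5 and 10 upstream, and these genes have many processed copies, which makes the assignment of their reads uncertain. Mitochondrial ribosomal proteins had 20 of 47 rows below (42.6%) and 7 above, and subunits of oxidative phosphorylation 19 of 39 below (48.7%) and 3 above (ATP5F1, COX7C and NDUFB4), against 26.0% below in the third quartile of upstream level. Chaperones had 11 of 16 rows below (68.8%, against 76.6% in the highest quartile) and 3 above (HSPA4, HSPH1 and DNAJA1), and HSPA8 had 27 and 42 reads downstream, against 1046 and 1814 upstream.

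Splicing factor and hnRNP genes had 12 of 27 rows below the median row (44.4%) and 7 above (25.9%). The shares were 27.4% and 21.9% over all rows, and 76.6% and 7.4% in the highest quartile of upstream level. Their median member lay in that quartile. Downstream reads were higher than upstream reads in 3 of the 7 rows above (HNRNPA1, HNRNPR and SNRPG). HNRNPR had 45 and 77 reads downstream, against 11 and 16 upstream (2.07 ± 0.31), without annotated exon downstream. Cell cycle genes had 6 of 18 rows below (33.3%, against 27.4% over all rows) and 2 above (CDK4 and CCNE2). TOP2A, the topoisomerase of dividing cells, had 5 and 15 reads downstream, against 104 and 186 upstream. Solute carriers had 16 of 52 rows below (30.8%) and 12 above (23.1%), at shares close to those over all rows, and SLC30A1, a zinc exporter, had 182 and 253 reads downstream, against 99 and 113 upstream.

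The genes of 3'-end processing had 15 rows, with 4 below the median row (PCF11, PAPOLA and PPP1CB among them) and 3 above (CPSF6, CPSF2 and CSTF2T), at shares close to those over all rows. PCF11, which couples cleavage to termination, had 2 and 5 reads downstream, against 57 and 95 upstream (-4.18 ± 0.40), although its downstream window was exon throughout. PAPOLA, the poly(A) polymerase, had 10 and 21 reads downstream, against 90 and 151 upstream (-2.93 ± 0.27). ZRANB2 had 9 and 4 reads downstream, against 23 and 50 upstream, and HMGB1 had 4 and 13 downstream, against 34 and 48 upstream. Downstream reads were lower in both (adjusted p = 0.0348 and 0.0133), and neither was called different from the median row.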

How the data were processed

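The 4 columns of the unirradiated libraries were used, and the 4 value columns of the irradiated libraries were not. Per the methods, the authors used cutadapt for trimming, TopHat2 for alignment (hg19), SAMtools for a mapping quality filter and featureCounts (R 3.4.0) for the reads of each 500-nt window. They removed genes whose downstream window overlapped another gene and kept the others by a read minimum in both windows. The values are reads divided by 1 factor per library. The library protocol was stranded, but the strand setting of the counting is not given in the sources used here. The deposited values are thus a signal of normalized reads, from which whole reads were recovered for 100% of values within 1e-06 of a whole number (size factors 0.719 and 1.22). The names of 6 rows were damaged (3 shifted, 3 turned into dates), and these were tested without a name.

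Log2 ratios with a pseudocount of 1 were fitted with limma 3.58.1 (trend) in R 4.3.3 against 0 and against the median row, with an adjusted p under 0.05, two-sided. Each row has only 1 residual degree of freedom, so that the p-values rest mostly on variance that limma draws from all rows. This variance was drawn separately in the fit against 0 and in the fit against the median row, and their p-values are not on the same scale. Pairing comes from the library, since both windows of a library share cells and size factor. Alternatives were edgeR 4.0.16, DESeq2 1.42.0, other pseudocounts, filters, TMM factors, no trend, robust variances and no pairing. With 200 of 4208 rows changed by 4-fold in simulated data, limma recovered 90% of higher and 65% of lower rows between the windows, and 97% and 50% against the median row. Exons came from GENCODE 44 lifted to GRCh37. Summaries were made in Python 3.11.15 (scipy 1.17.1, numpy 2.4.6, pandas 2.3.3).

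Rows were named as the 20 largest upstream, the 15 largest downstream, the 15 highest ratios without exon and the 8 highest of any row, the 15 lowest ratios, the 4 most abundant members of each list with any needed for a count of 5 or fewer, the 5 most different between libraries, and PCF11, ZRANB2 and HMGB1. Some rows and 1 gene list are not reported here. The rows, lists and tests were chosen with earlier results of these data known.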

Additional observations from a re-analysis of the deposited data

How the results depend on the processing

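With 2 libraries, leaving out either leaves no residual degrees of freedom, so that only values could be given. Without annotated exon downstream (1602 rows), 18 rows were higher downstream and 904 lower, with 377 above and 444 below the median row. With under 250 nt of exon, chosen after seeing the data, the counts were 30 higher, 586 above and 686 below. Both settings also took the median row of their own rows. In the fit over all rows, 263 of the 1602 rows without exon lay above and 534 below. DESeq2 called 58 higher, 339 above and 688 below, and the cause was not tested. Without the pairing of windows within a library (no replicate block), 112 rows were higher and 2261 lower, with 815 above and 1073 below. At a mean of at least 10, 8 rows differed between the libraries. The median log2 ratio was -2.08 at a mean of at least 10, -2.02 without exon, -1.64 without genes under 500 nt, -1.70 and -1.17 with pseudocounts of 0.5 and 5, and -1.62 to -1.61 in single libraries. Summed downstream reads were 10.6% of upstream reads without exon. The 10 largest rows held 13.0% of downstream and 14.2% of upstream reads without genes under 500 nt, and 13.4% upstream without RPPH1. The difference between single-exon and spliced genes was -0.38 at a mean of at least 10, and -0.30 and -0.31 in the second and highest quartiles of upstream level, against 0.11 over all rows. Of 303 calls on 178 named rows, DESeq2 lost 40 and limma without the trend 33, and 0 reversed. Beside the rows named with this loss in the text, DESeq2 did not call RPL27A and SNORD5 higher downstream. It did not call ZNF207, CSTF2T, CPSF2, HIST2H3D, NDUFB4, ANXA11, CD59, NAMPT, DNAJA1 and CCNE2 above the median row, nor DUSP5, JUND, RNU11, DSP, SNHG1, SNHG6, PAPOLA and PPP1CB below it.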
